A study of Homo sapiens with 2 samples.

Results

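The RAB genes encode small GTPases that mark the membranes of the secretory and endocytic routes. They were taken from the RNA-seq values of A549, a human cell line established from a lung adenocarcinoma, as the single-gene entries named RAB plus a number and at most 1 letter. This gave 45 genes among 14952 loci (12936 named genes), and their values were compared between the library labelled wild type and the library labelled MYOCD knockdown, with 1 library per group. MYOCD encodes myocardin, a coactivator of serum response factor. Per the labels both cultures were A549 cells grown in DMEM with serum and given doxycycline for 72 h, but the design text calls the wild type untreated. If the wild type received no doxycycline, the drug and the knockdown cannot be told apart. The knockdown sample carries the title MYOCD-/- and a genotype label of knockdown, with no method of depletion stated in its labels. With 1 library per group no value has a replicate error, no difference was tested, and the differences below are between these libraries only.

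A RAB protein cycles between a form bound to GDP, held in the cytosol by a GDP dissociation inhibitor, and a form bound to GTP, anchored in a membrane by prenyl groups at its C-terminus. Exchange factors load GTP, GTPase-activating proteins end the active state, and effectors such as tethers, motors and coat adaptors bind the GTP form. In epithelial cells such as those of the lung, these proteins direct traffic from the endoplasmic reticulum through the Golgi, uptake and recycling of surface receptors, delivery to lysosomes, and polarised secretion.

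RPKM scales reads by the length of the transcript and by the reads of the library, so levels of different genes can be set side by side. In each pair of RPKM values the wild type library comes first. A difference is the log2 change, knockdown over wild type after adding 1 RPKM to each value, a scale that makes differences of genes near or under 1 RPKM look smaller than they are. No read counts were given, so depth is unknown. MYOCD itself was near the floor, at 0.881 and 0.4005 RPKM. The epithelial line markers were present in both libraries in 8 of 8 cases (KRT8 at 1545 and 1521 RPKM), although EPCAM was low at 2.24 and 2.15 RPKM. Of 6 leukocyte markers 2 had a value: CD14, with 3.13 and 3.30 RPKM, above EPCAM, and LYZ, with 0.575 and 0.800 RPKM. Of 8 fibroblast and endothelial markers 1 had a value (COL1A1, 2.76 and 2.41 RPKM).

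The RAB genes were expressed over a wide range, and the libraries gave nearly the same order. They differed in both directions around a median log2 change of 0.04 over the 41 RAB genes whose mean reached 1 RPKM, beside 0.01 over all 12158 named genes kept by the same limit. With 1 RPKM added to each value, 1 RAB gene differed by at least 1.5-fold: RAB26, a GTPase of secretory granules, which was lower in the knockdown library. In plain RPKM ratios, RAB6B (1.67-fold) and RAB3A (1.73-fold), both of low level, were also past 1.5-fold and lower, beside 5.12% of all named genes. With the libraries set to equal summed RPKM over all loci, 5 RAB genes (12.2%) were at least 1.5-fold lower, beside 6.65% of all named genes. On the scale used here no RAB gene was counted at 2-fold in either direction. Differences of at least 1.2-fold, found in 15 of the 41 (36.6%, beside 26.5% of all named genes kept), went both ways. RAB6B, RAB21, RAB3A, RAB12, RAB3D, RAB5B and RAB24 were lower with RAB26, and RAB3B, RAB36, RAB35, RAB18, RAB22A, RAB27B and RAB14 were higher.

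Because a 7-base word, AATATGC, had been found over-represented in the 3′ UTRs of messages that were lower in this knockdown library, the RAB messages were searched for it. The sites of RAB21 and RAB12, which had lower values, are shown with those of RAB1A and RAB11A, whose values differed little. Sequences are from the transcripts of GENCODE release 29 (GRCh38), 5′ to 3′ on the message strand, with the word in capitals. All lie in an annotated 3′ UTR, and the number in each name is the distance in bases from the stop codon.
RAB12 site 132: ctaacttgtaAATATGCatatatgcaa
RAB21 site 590: aatgaggaatAATATGCatgtagaaaa
RAB21 site 4062: ttgatttcatAATATGCattgatttta
RAB21 site 13823: atatcctgtaAATATGCttatgtatga
RAB1A site 773: ctttctagatAATATGCccaataacat
RAB11A site 3317: tcacctatacAATATGCcaaatcaact
RAB11A site 3979: caatatcaacAATATGCatcaaagtac

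The words lie at chr18:8638394-8638400 for RAB12, at chr12:71786263-71786269, chr12:71789735-71789741 and chr12:71799496-71799502 for RAB21, and at chr2:65087714-65087720 on the minus strand for RAB1A. Those of RAB11A lie at chr15:65891157-65891163 and chr15:65891819-65891825. The values beside these sites are given with the 3′ UTR results at the end.

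On the deposited scale the RAB genes as a set had similar totals. Their RPKM summed to 1393 for the wild type and 1430 for the knockdown, a ratio of 102.6%, but with equal summed RPKM over all loci this ratio was 89.4%, the opposite direction. The 3 highest genes made up 30.2% of the wild type RAB sum and 32.7% of that in the knockdown. The 10 highest genes were the same 10 in both and made up 67.9% and 68.7% of the sum. Mean levels ran from 0.651 RPKM for RAB38 to 188.9 RPKM for RAB10, with a median of 15.4 RPKM. Across the 45 genes Pearson's r between the libraries was 0.990 on the log2(RPKM + 1) scale and Spearman's rho was 0.983, as a description of genes that share their libraries. No RAB gene was listed at 0 in either library.

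**Figure D1:**
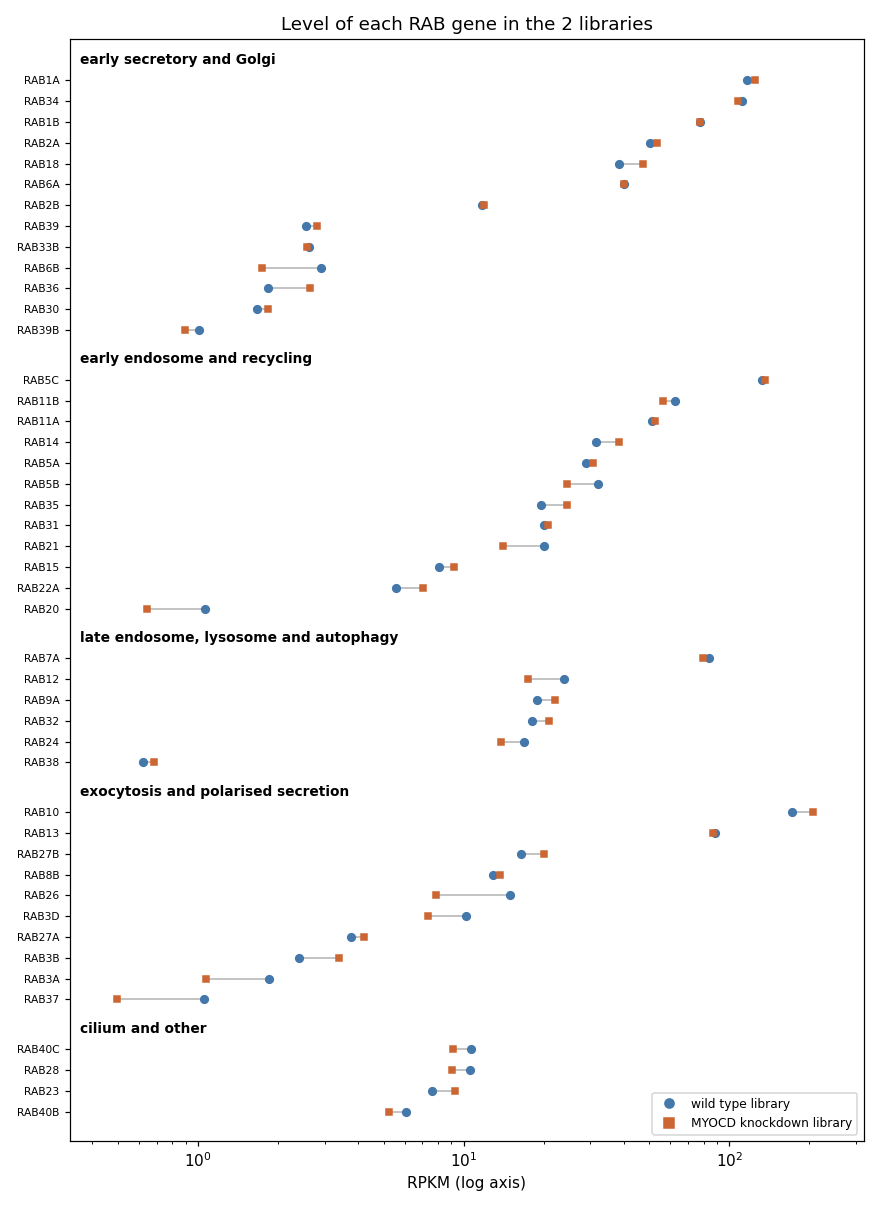
RPKM of each of the 45 RAB genes (log axis) in the wild type library (circles) and the MYOCD knockdown library (squares), grouped by role and ordered by mean level, with 1 library per group. RAB10 is highest in both libraries, and the gap at RAB26 (15.0 and 7.85 RPKM) is the widest among genes over 5 RPKM.

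The 8 highest genes cover each main step of membrane traffic. RAB10, which acts in exocytosis and in delivery of glucose transporters to the surface, was first with 171.8 and 206.1 RPKM. Its gene spans bases 26034107 to 26137454 of chromosome 2 (plus strand). RAB5C, an early endosome GTPase, had 133.2 and 136.0 RPKM, and RAB1A, which drives transport from the endoplasmic reticulum to the Golgi, had 116.2 and 125.5 RPKM. After them came RAB34, a Golgi and ciliary GTPase, with 111.8 and 108.0 RPKM. RAB13, which acts at epithelial tight junctions, had 88.1 and 86.6 RPKM, and RAB7A, the GTPase of late endosomes and lysosomes, had 84.1 and 79.5 RPKM. RAB1B and RAB11B closed the 8 with 77.6 and 77.3 RPKM and with 62.4 and 56.5 RPKM. Apart from RAB10, whose log2 change was 0.26, these genes had log2 changes from -0.14 for RAB11B to 0.11 for RAB1A. With no replicate the order of neighbours that differ this little cannot be told from their error.

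Of the 41 RAB genes kept, 23 had a log2 change above 0 and 18 below, beside 52.1% above 0 among all named genes kept. The middle 50% of the RAB log2 changes ran from -0.18 to 0.20, beside -0.15 to 0.16 for all named genes kept. At 1.5-fold, 1 RAB gene was lower and 0 were higher, where 3.2% of all named genes kept were lower and 1.65% were higher. At 2-fold the RAB counts were 0 and 0, with 0.724% of all genes lower and 0.65% higher. The 1.2-fold size, chosen after the values were seen, gave 8 RAB genes lower and 7 higher, beside 14.1% of all genes lower and 12.4% higher. RAB24 (log2 change -0.27) and RAB14 (0.27) lie just inside this size, and RAB10 (0.26) and RAB40C (-0.21) just outside it. These counts depend on the scaling. With the libraries set to equal summed RPKM over all loci, which moved the median of all genes by -0.18, the 1.2-fold counts were 13 lower and 0 higher, beside 33.5% of all genes lower and 4.01% higher. Unnamed loci, left out here, made up 42.3% of that sum for the wild type and 49.5% for the knockdown. With equal upper quartiles the counts were 8 lower and 4 higher, beside 16.4% and 9.71% of all genes.

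**Figure D2:**
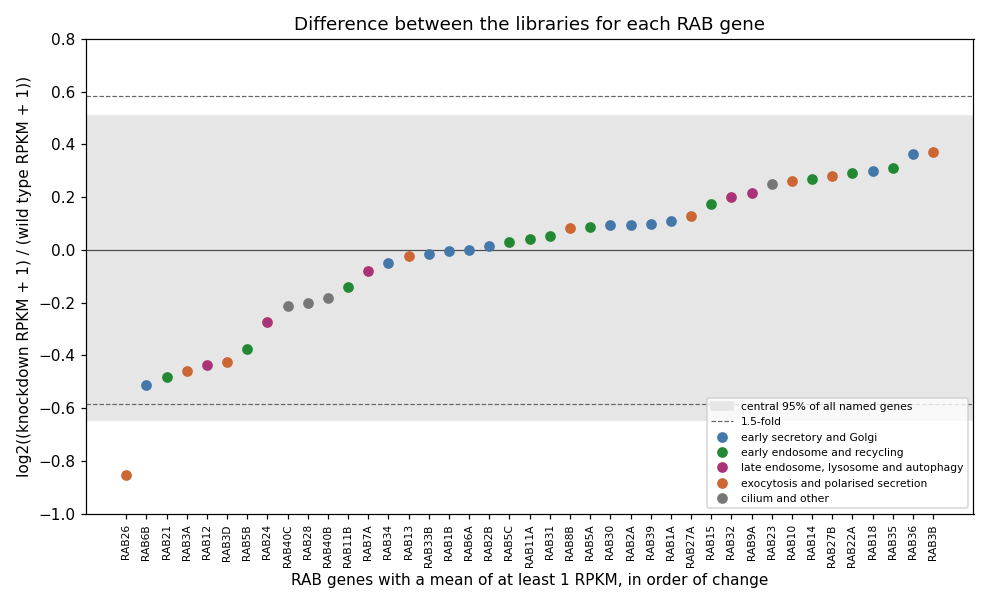
Log2 change of each of the 41 RAB genes kept, in order of change and coloured by role. The grey band holds the central 95% of all named genes kept (-0.64 to 0.51), dashed lines mark 1.5-fold, and RAB26 at -0.85 is the 1 point outside both.

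The early secretory and Golgi group, with 12 genes kept, held steady values, with the middle 50% of its log2 changes between -0.01 and 0.10. Its median log2 change was 0.05, with 7 genes above 0 and 5 below. RAB6A, which acts in retrograde traffic at the Golgi, had 40.2 RPKM in each library, and RAB1B also differed little (log2 change -0.01). RAB2A and RAB2B, GTPases of the Golgi and the compartment before it, had 50.1 and 53.6 RPKM and 11.8 and 11.9 RPKM. RAB18, known from the endoplasmic reticulum and lipid droplets, was the highest of the abundant members by change, with 38.4 and 47.5 RPKM (log2 change 0.30). RAB33B, a Golgi GTPase that binds the autophagy protein ATG16L1, had 2.62 and 2.58 RPKM. Both extremes of this group were genes of low level. RAB6B, a close relative of RAB6A best known from neurons, had 2.91 and 1.74 RPKM (log2 change -0.51). RAB36, a GTPase of the Golgi and lysosomes, had 1.84 and 2.65 RPKM (log2 change 0.36). RAB30, a Golgi GTPase, had 1.66 and 1.84 RPKM, but its locus contains the small nucleolar RNA gene SNORA70E, so the value may not be of the message alone. RAB39 (now RAB39A) had 2.56 and 2.82 RPKM, and RAB39B, below the limit of 1 RPKM, had 1.01 and 0.897 RPKM.

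The early endosome and recycling group kept 11 genes, of which 8 had a log2 change above 0, with a median of 0.05. RAB21, a GTPase of early endosomes that binds integrins, stood lowest among the 11, with 20.1 and 14.1 RPKM (log2 change -0.48). Its gene spans bases 71754874 to 71800285 of chromosome 12 (plus strand). RAB5B, which shares the role of RAB5A and RAB5C in early endosome fusion, was next, with 32.1 and 24.5 RPKM (log2 change -0.38). Members at least 1.2-fold higher were RAB35, RAB22A and RAB14. RAB35, which acts in fast recycling to the plasma membrane, had 19.6 and 24.5 RPKM (log2 change 0.31). RAB22A, an endosomal GTPase, had 5.58 and 7.06 RPKM, and RAB14, which acts between the Golgi and endosomes, had 31.6 and 38.3 RPKM. Their log2 changes were 0.29 and 0.27. RAB15, which slows endocytic recycling, had 8.06 and 9.21 RPKM, while RAB31, which acts between the Golgi and endosomes, had 20.1 and 20.8 RPKM. RAB11A, the main GTPase of recycling endosomes, had 51.2 and 52.7 RPKM. RAB20, below the limit of 1 RPKM, had 1.06 and 0.646 RPKM.

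The late endosome, lysosome and autophagy group kept 5 genes, 2 above 0 and 3 below, with a median log2 change of -0.08. RAB12, which acts in the delivery of the transferrin receptor to lysosomes, had 23.9 and 17.4 RPKM (log2 change -0.44). RAB24, linked to autophagy, had 16.9 and 13.8 RPKM (log2 change -0.27), and its gene overlaps MXD3 on the same strand. RAB7A, given above, was slightly lower (log2 change -0.08). RAB9A and RAB32 were higher: RAB9A, which returns receptors from late endosomes to the Golgi, had 18.9 and 22.1 RPKM, and RAB32, known from lysosome-related organelles, had 18.1 and 21.0 RPKM. RAB38, the close relative of RAB32, was the lowest RAB gene of all at 0.620 and 0.683 RPKM.

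The exocytosis group had the widest spread, from -0.85 to 0.37 over 9 genes kept, with 5 above 0 and 4 below. RAB26 had 15.0 and 7.85 RPKM, so the knockdown library was at 52.4% of the wild type level. On the scale with a pseudocount this is 1.81-fold lower, and 1.13% of all named genes kept had a lower log2 change. RAB26 spans bases 2140803 to 2154165 of chromosome 16 (plus strand) and overlaps no other coding gene and no short RNA gene on its strand in GENCODE. RAB37, its close relative in regulated secretion, was also lower, at 1.06 and 0.494 RPKM, but below the limit of 1 RPKM. The RAB3 genes, which control regulated exocytosis of vesicles and granules, differed in both directions. RAB3D had 10.2 and 7.35 RPKM, RAB3A had 1.85 and 1.07 RPKM, and RAB3B had 2.40 and 3.40 RPKM, with log2 changes of -0.42, -0.46 and 0.37. RAB27B and RAB27A, which act in granule and exosome release, had 16.4 and 20.2 RPKM and 3.77 and 4.21 RPKM. RAB8B, a GTPase of polarised transport, had 12.9 and 13.7 RPKM.

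The remaining genes were 4 of varied function, with 1 above 0 and 3 below. RAB23, a negative regulator of hedgehog signalling at the cilium, had 7.63 and 9.26 RPKM. RAB28, a ciliary GTPase, had 10.6 and 9.05 RPKM. RAB40C and RAB40B, which carry a SOCS box and act in ubiquitin ligases, had 10.7 and 9.08 RPKM and 6.08 and 5.24 RPKM. The RAB40B locus contains the microRNA gene MIR4525.

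Differences of at least 1.2-fold occurred both above and below a mean of 5 RPKM. The highest mean among the genes with such a difference was 42.9 RPKM, for RAB18. That limit rests on the cut, as RAB10 (mean 188.9 RPKM, log2 change 0.26) lay just outside it. Of the 33 RAB genes whose mean reached 5 RPKM, 6 were at least 1.2-fold lower and 5 higher, beside 11% and 11.2% of 7860 protein-coding genes at that level. Of the 8 between 1 and 5 RPKM, 2 were lower and 2 were higher, beside 23.2% and 13.3% of 2278 such genes. For low genes a few reads can move the RPKM by this much, and how many reads lie behind these values is unknown.

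Several RAB proteins are encoded by paralogs that share a number, and within most of these sets the summed RPKM and the leading gene were alike in both libraries. RAB5C made up 68.6% of the wild type RAB5 sum and 71.1% of the knockdown one. RAB5B went from 16.6% to 12.8% of that sum, and the RAB5 sums were 194.2 and 191.2 RPKM. RAB1A held 59.9% and 61.9% of the RAB1 sum, and RAB6A held 93.3% and 95.9% of the RAB6 sum. RAB2A held 81.0% and 81.8% of the RAB2 sum. RAB11A and RAB11B were the most even pair, with RAB11A at 45.1% and 48.2%. The RAB3 set differed most in composition: RAB3B had a share of 16.6% in wild type cells and 28.8% in knockdown cells, while RAB3D was 70.6% and 62.2%. The RAB3 sums were low, at 14.5 and 11.8 RPKM. RAB27 was the set whose sum was higher by the largest ratio, from 20.2 to 24.4 RPKM, and both of its genes were higher. Both RAB40 genes were lower, and their shares were nearly equal in the libraries. Paralogs share coding sequence, so how reads were divided among them was not tested.

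**Figure D3:**
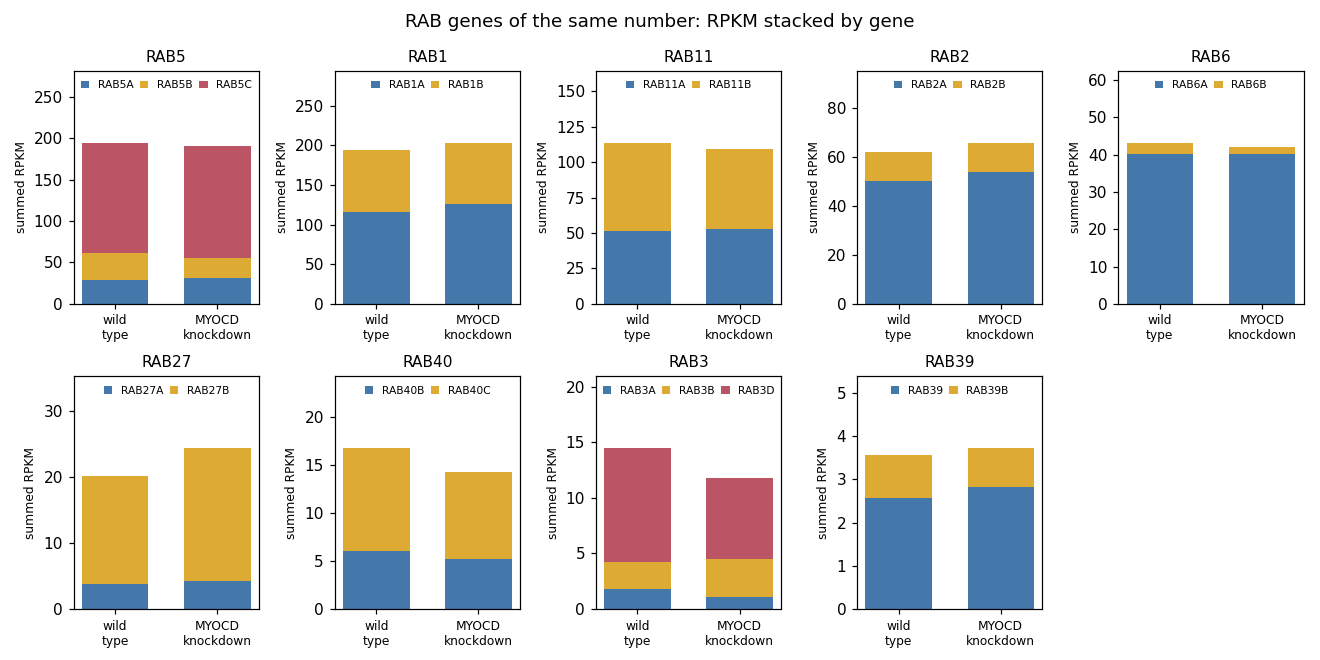
RPKM in the wild type and MYOCD knockdown libraries, stacked by gene, for the 9 sets of RAB genes that share a number, each on its own axis from 0. The bars of most sets have similar heights in the libraries, with larger gaps for RAB27 (20.2 and 24.4 RPKM), RAB3 (14.5 and 11.8 RPKM) and RAB40 (16.8 and 14.3 RPKM). RAB3 shows the clearest shift in composition, with RAB3B taking 28.8% of the knockdown sum against 16.6% for the wild type.

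RAB genes outside the 45 also had similar values in both libraries. Entries that pool several genes held RAB4A (20.9 and 21.9 RPKM with SPHAR), RAB8A (31.9 and 31.0 RPKM with HSH2D), RAB4B (74.8 and 71.5 RPKM with EGLN2 and MIA) and RAB43 (10.8 and 11.7 RPKM with ISY1). In these the value belongs to the locus and not to the RAB gene. RAB7L1, now RAB29, had 9.72 and 9.41 RPKM. Of 62 RAB genes listed by role, 12 had no value among those used here: RAB3C, RAB6C, RAB7B, RAB9B, RAB17, RAB19, RAB25, RAB33A, RAB40A, RAB41, RAB42 and RAB44. In every locus of the table the higher library was at least 0.652 RPKM, so genes low in both libraries do not appear.

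The genes that act on RAB proteins also had medians close to 0. Their counts past 1.5-fold are on the scale with 1 RPKM added, and plain ratios are given where they differ. On that scale 3.2% of all named genes kept were at least 1.5-fold lower and 1.65% higher. Of the 8 genes for prenylation and recycling, 7 were kept, with a median log2 change of 0.03, and 0 passed 1.5-fold in either direction. GDI2, a GDP dissociation inhibitor, had 147.6 and 156.9 RPKM. RABAC1, which frees prenylated RAB proteins from the inhibitor, had 202.8 and 160.1 RPKM. RABIF, which binds nucleotide-free RAB proteins, was highest by change with 7.71 and 8.84 RPKM.

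Of 51 exchange factor genes 46 were kept, with a median log2 change of -0.01, 23 above 0 and 23 below, and 0 past 1.5-fold. RAB3IL1, which activates RAB3A and RAB8, was lowest with 6.15 and 3.79 RPKM, and ST5 (now DENND2B) was highest with 1.87 and 3.22 RPKM. Both pass 1.5-fold as plain ratios. Of 41 genes for GTPase-activating proteins 36 were kept, with a median of -0.02, 15 above 0 and 21 below, and 0 past 1.5-fold. TBC1D8 was lowest with 32.3 and 21.6 RPKM, and TBC1D4, which acts on RAB10 in insulin-responsive transport, was highest with 4.59 and 6.35 RPKM. As a plain ratio 1 of these genes, GRTP1, was at least 1.5-fold lower. Of 52 effector genes 44 were kept, with a median of 0.01, and 1 was at least 1.5-fold lower and 0 higher. That gene was RAB11FIP4, an effector of RAB11, with 2.23 and 0.841 RPKM. MYO5B, the myosin that carries recycling endosomes, was the highest effector with 1.80 and 3.15 RPKM, past 1.5-fold as a plain ratio. RILP, an effector of RAB7A, was past it in the lower direction. Beside these counts, 3.2% of all named genes kept were at least 1.5-fold lower and 1.65% higher. In plain ratios the shares of all named genes were 5.12% lower and 2.62% higher.

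**Figure D4:**
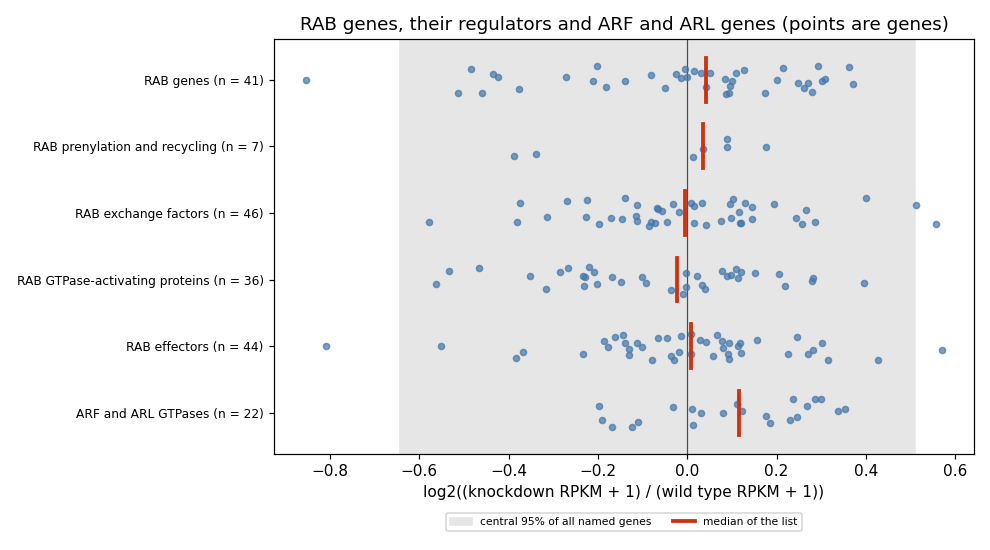
Log2 changes of the RAB genes, of 4 lists of genes that act on RAB proteins, and of the ARF and ARL genes (points are the genes kept, red bars are medians, the grey band holds the central 95% of all named genes kept). Medians lie between -0.02 and 0.12, and few points leave the band.

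For comparison, 22 ARF and ARL genes, which encode another family of trafficking GTPases, had a median log2 change of 0.12, with 16 above 0 and the highest log2 change, 0.35, for SAR1A. The RAB-like genes, 6 of which were kept, had a median of 0.10, from -0.23 for RABL5 (now IFT22) to 0.49 for RABL2B, a gene with the near-identical copy RABL2A. Neither set was tested against the RAB genes.

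The word AATATGC was found in the longest annotated 3′ UTR of 9 of the 41 RAB genes kept (21.95%), beside 11.6% of protein-coding genes free of internal short RNA genes. These shares were not adjusted for 3′ UTR length. The median length was 3483 bases for RAB genes with the word and 2218 bases for those without it. For the protein-coding genes it was 3197 and 1230.5 bases. The 9 RAB genes had a median log2 change of 0.08, with 3 below 0 and 2 at least 1.2-fold lower. The 32 without it had a median of 0.02, with 15 below 0 and 6 at least 1.2-fold lower. Among the other protein-coding genes that hold the word, 1163 in number, 21.1% were at least 1.2-fold lower, beside 12.7% of the 8950 genes without it. The 2 RAB genes with the word that were at least 1.2-fold lower were RAB21, with 3 sites, and RAB12, with 1 site. RAB33B, with 1 site, was also below 0 (log2 change -0.01). RAB11A has 2 sites and a log2 change of 0.04, and RAB1A has 1 site and a log2 change of 0.11. Whether the place of a site in the 3′ UTR matters was not tested. RAB26, RAB6B, RAB3A, RAB3D, RAB5B and RAB24 do not hold the word. The word was picked in an earlier look at messages lower in these same libraries. Its occurrence is therefore a description, and the shares of 21.1% and 12.7% are not independent of that choice. These 2 shares were also not adjusted for 3′ UTR length, and which UTR ends A549 cells use is unknown. Of 2370 mature human miRNAs in the RefSeq table, 0 have GCAUAUU, the complement of the word, as bases 2 to 8.

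Messages with long 3′ UTRs tended to have the higher log2 changes. Of 24 RAB genes with a 3′ UTR of at least 2000 bases, 17 had a log2 change above 0 (70.8%), against 6 of 17 genes with a shorter one (35.3%). Among all such protein-coding genes the shares were 58.4% and 48.8%. The medians were 0.09 and -0.05 for the RAB genes and 0.05 and -0.01 for the protein-coding genes. This division was chosen after the values were seen, and Spearman's rho between length and log2 change was 0.28 over the 41 RAB genes and 0.13 over 10121 genes. RAB21 went against it, with the longest 3′ UTR of the family (14612 bases) and a log2 change of -0.48. RAB6B, RAB3D and RAB5B, each with a 3′ UTR of at least 2000 bases, were also lower (log2 changes -0.51, -0.42 and -0.38).

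**Figure D5:**
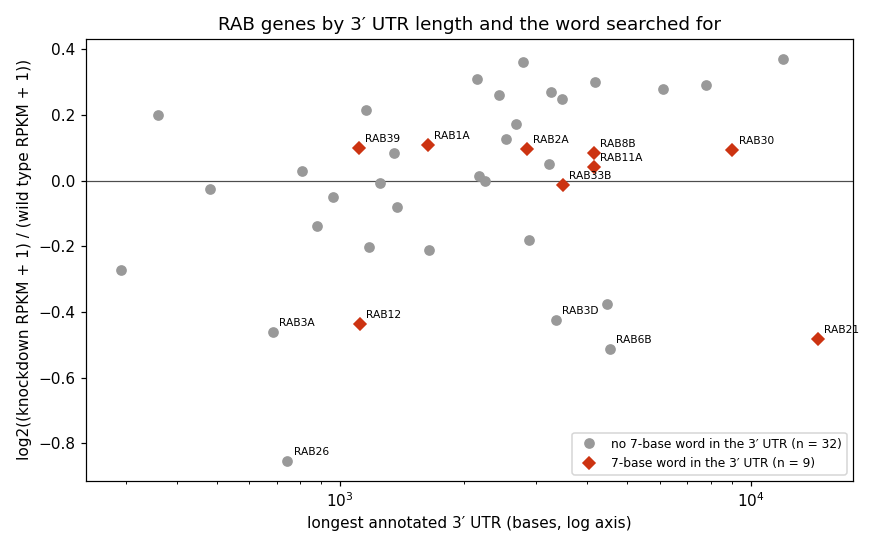
Log2 change of the 41 RAB genes kept against the length of the longest annotated 3′ UTR (bases, log axis), with genes holding the 7-base word as red diamonds. Of the 9 genes with the word, RAB21 and RAB12 lie low and the other 7 lie between -0.01 and 0.11.

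The promoters of 34 of the 45 genes matched the RefSeq promoter table (GRCh38.p14, 250 bases before to 50 after the start). The CArG box, the element bound by serum response factor, was searched for by its usual pattern on both strands and found in 0 of the 34, beside 1.29% of 27305 promoters in the table. TATAAA, on either strand, was found in 0 of the 34, beside 11.95% of all promoters. RAB26, RAB12 and RAB36 had no entry. A missing match says only that these letters do not occur in this window.

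In GENCODE, 16 of the 45 RAB genes overlap another coding gene on either strand, and 20 overlap a non-coding gene on the other strand. Among the genes named for lower values, RAB6B overlaps SRPRB, RAB3A overlaps MPV17L2, and RAB3D overlaps TMEM205, CCDC159 and TSPAN16. No label says whether the counting used strand, so for these genes reads of the partner cannot be told apart. RAB14, which was higher, overlaps GSN. RAB26, RAB21, RAB12, RAB5B, RAB3B and RAB36 overlap no coding gene. Pseudogenes named after them exist for RAB5C, RAB11A, RAB9A and RAB28.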

How the data were processed

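The deposited values are RPKM per locus for 2 libraries, 1 per group, computed by the authors. Per the submitters' processing notes, the tools were Cufflinks 2.2.1 with TopHat2 2.0.10, and BDGP5 (a fruit fly build) and GRCh38.p12 were listed as builds, none with a role. Annotation, filters and strand: not given in the sources used here. Entries with the same name were summed, entries with no name were left out, and genes whose mean reached 1 RPKM were kept. Log2 changes used a pseudocount of 1. Members were found by name pattern. Older names were matched through RefSeq, and RAB39, an older name of 2 genes, was given to RAB39A because RAB34 has its own entry. Coordinates, overlaps and 3′ UTRs came from GENCODE release 29 (GRCh38), whose boundaries may differ from the authors' loci.

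No test was possible with 1 library per group, and depth is unknown. The RAB genes, the role and regulator lists and the word searched for in UTRs were chosen with earlier results of these data known. Genes with values were chosen by a rule: those past 1.5-fold, the 8 highest and 8 lowest log2 changes, the 8 highest means, their paralogs, and the highest and lowest gene of each list. Other members were added, and some genes the rule takes are not reported here. Alternatives were other pseudocounts, filters and scalings. The 1.2-fold size, the plain ratios and the UTR length division were added after the values were seen. Calculations ran in scipy 1.17.1, pandas 2.3.3 and numpy 2.4.6 under Python 3.11.15. The log2 change and the 1.5-fold limit were tried on simulated data, and the other counts and the sequence searches were not.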

Additional observations from a re-analysis of the deposited data

How the results depend on the processing

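Scaling to equal sums over all loci changed the RAB results most. It gave a median RAB log2 change of -0.15. Of the 41 RAB genes, 5 were at least 1.5-fold lower (12.2%, beside 6.65% of all genes). At least 2-fold lower was 1 (2.44%, beside 1.2% of all genes). At 1.2-fold 13 were lower (31.7%, beside 33.5% of all genes) and 0 higher (beside 4.01% of all genes). The same scaling gave medians of -0.14 for prenylation and recycling, -0.19 for exchange factors, -0.20 for GTPase-activating proteins and -0.17 for effectors. The median of all genes moved by -0.18 with it. A pseudocount of 0.1 gave 3 RAB genes at least 1.5-fold lower (7.32%, beside 5.06% of all genes). Plain ratios, a setting added after the values were seen, also gave 3 lower (beside 5.12% of all genes). At 1.2-fold a pseudocount of 5 gave 5 RAB genes lower (12.2%, beside 7.3% of all genes) and 1 higher (2.44%, beside 5.97%). Equal upper quartiles gave 4 higher at that size (9.76%, beside 9.71% of all genes). Medians were counted as moved from a difference of 0.1. RAB26 was lower in 8 of 8 settings, with log2 changes from -1.03 to -0.64. The pseudocount and filter settings cannot change its direction, and every setting used the same 2 libraries. No paired analysis was possible because each group has 1 library, and for the same reason no replicate could be left out.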
